A study of Mus musculus with 6 samples.

Results

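The genes described here mark the glial lineages that a newborn pineal gland and its nerves can hold. They are Foxd3, Sox10, Erbb3, S100b, Mbp, Cnp, Olig1 and Olig2, and they were taken as the probe sets that the platform annotation assigns to 1 of these genes alone. These 8 genes, of 18193 that the annotation names singly, had 21 of the 45037 probe sets of the array table. A probe set is a group of short probes read together as 1 signal, a linear fluorescence intensity in the units of the deposited table. The animals were mice of strain 129 at postnatal day 0, housed under a light cycle of 12 h on and 12 h off and sampled by day. There were 3 pools of wildtype glands and 3 pools homozygous for a Neurod1 knockout, each of 3 glands and run on 1 array after a single round of RNA amplification. Which exons of Neurod1 the allele lacks is not stated in the labels, nor is how the animals of a pool were related. The comparison asks which of these glial transcripts differ at birth where the transcription factor Neurod1 is missing.

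Schwann cells are the glia of peripheral nerves, and in the pineal gland they accompany the sympathetic fibres that enter it. They arise from the neural crest, where Foxd3 and Sox10 act as transcription factors, and their survival and growth depend on neuregulins acting on Erbb3 together with Erbb2. Oligodendrocytes are the myelin-forming glia of the central nervous system and depend on Olig1, Olig2 and, as in Schwann cells, Sox10. Mbp and Cnp are made in quantity by both kinds of myelinating cell, and S100b, a calcium-binding protein, is also made by astrocytes. In whole glands, more cells of a type and more RNA per cell cannot be told apart.

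Upstream sequences of 4 of the 8 genes were in the RefSeq table of GRCm38.p6. They are given as the 250 bases before the annotated start, for Foxd3, whose signals did not overlap between the genotypes, and for Cnp, whose brightest probe set had the lower mean in knockout. Capitals mark the hexamer CANNTG, the class of site that basic helix-loop-helix factors such as Neurod1 bind. The hexamer reads as CANNTG on both strands.
Foxd3: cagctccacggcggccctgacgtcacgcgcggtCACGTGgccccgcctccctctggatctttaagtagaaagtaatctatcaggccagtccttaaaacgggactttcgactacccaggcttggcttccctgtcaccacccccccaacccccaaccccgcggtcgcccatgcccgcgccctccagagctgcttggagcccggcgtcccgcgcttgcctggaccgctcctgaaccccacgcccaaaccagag
Cnp: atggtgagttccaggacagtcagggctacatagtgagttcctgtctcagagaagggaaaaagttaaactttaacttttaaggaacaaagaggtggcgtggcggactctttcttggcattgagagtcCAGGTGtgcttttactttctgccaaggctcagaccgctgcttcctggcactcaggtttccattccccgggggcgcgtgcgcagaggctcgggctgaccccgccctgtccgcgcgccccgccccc
The Foxd3 window lies at chr4:99656049-99656298 on the plus strand and holds 1 match, CACGTG, whose first base is 217 bases before the start. The Cnp window lies at chr11:100574689-100574938 on the plus strand and holds 1 match, CAGGTG, 124 bases before the start. The S100b window also holds 1 match, CAGTTG, and the Olig2 window holds 0. Of all 32851 windows of this length, 66.2% hold the hexamer at least once. The narrower form CAGATG, searched on both strands, was in 0 of the 4 windows and in 14.4% of all windows. These are matches of letters, and binding was not measured.

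Neurod1 itself followed the labels. Probe set 1426413_at had signals of 9027, 9301 and 7519 in wildtype pools 1 to 3, and of 390.2, 524 and 122.5 in the knockout pools. The groups did not overlap, and the log2 difference, knockout minus wildtype, was −4.67 (SE 0.46, limma adjusted p = 0.0330). Median signals of the 6 arrays lay between 132 and 184 and their 20th percentiles between 28.4 and 45.6. Of 10 pinealocyte markers, 10 were bright enough to be tested, beside 12797 of all 18193 genes. Choroid plexus genes were uneven between pools of both genotypes: the transthyretin gene Ttr was at 898 (wildtype pool 1) and 685 (knockout pool 3) where the remaining arrays read from 38903 up to 87464. The part of this in the values below was not tested.

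Across the array, 2 of 22012 probe sets tested had an adjusted p under 0.05, a share of 0.00909%, and both belong to Neurod1. None of the 11 glial probe sets bright enough to be tested passed (0 of 11). Their limma adjusted p was 0.999 in each case, and 2 of them, Foxd3 1422210_at and Mbp 1419646_a_at, had an unadjusted p under 0.05, as had 3.36% of all probe sets tested (1.79% with knockout higher). The threshold of brightness was a mean of 105, averaged on the log2 scale and turned back into signal units. The other 10 glial probe sets were dimmer on that scale. The 11 tested probe sets cover 6 of the 8 genes, and Olig1 and Olig2 were not among them. Knockout had the higher mean in 8 of the 11 (51.1% of all probe sets tested) and was higher within all 3 pool numbers in 4 of them (14.1%). In 3 of the 11 the genotypes did not overlap, with the knockout pools higher, against 5.23% of all probe sets tested. In 0 of the 11 were the knockout pools lower without overlap, against 4.72%. The 3 are 1 of Foxd3 and 2 of Mbp, and probe sets of 1 gene are not independent. Foxd3 is in each of these counts with knockout higher and passed the brightness threshold only through its knockout signals, so the counts describe the tested probe sets and support no direction.

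**Figure D1:**
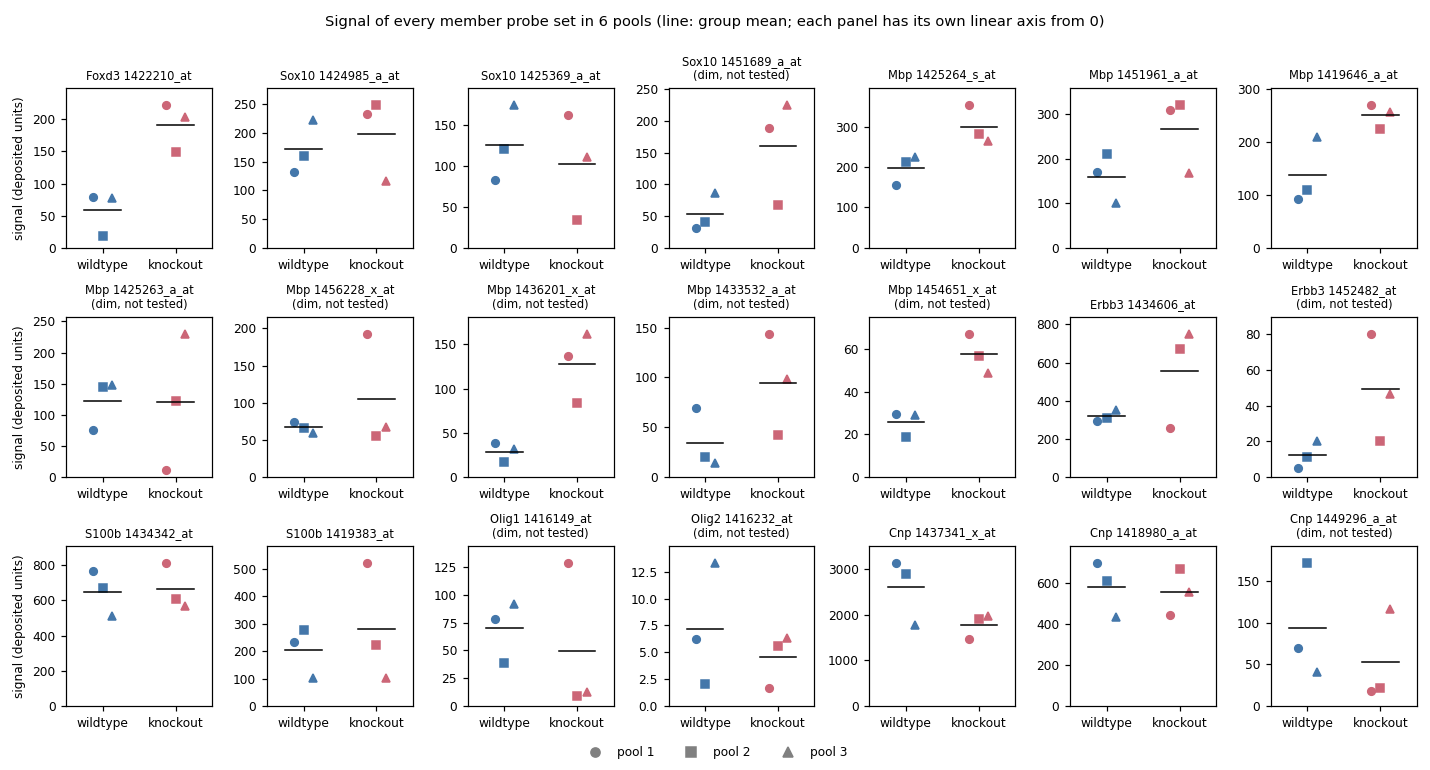
Signals of the 21 probe sets of the 8 glial genes in 6 pools, each panel with its own linear axis from 0 in deposited units. Points are pools, shaped by pool number, and lines are means of 3 pools. In Foxd3 the knockout pools lie between 148.8 and 222.1 and the wildtype pools between 18.4 and 79.1.

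Foxd3, a forkhead factor of neural crest cells and their early glial progeny, had the largest log2 difference of the tested glial probe sets. Its probe set 1422210_at had signals of 79.1, 18.4 and 78.2 in wildtype pools 1 to 3, and of 222.1, 148.8 and 203.8 in the knockout pools. Every knockout pool exceeded every wildtype pool. The ratio of means, knockout over wildtype, was 3.27, and the log2 difference was 1.31 (SE 0.41; unadjusted p = 0.0109, limma adjusted p = 0.999), so it did not pass the threshold. Pairs of the same number gave differences of 1.15 (number 1), 1.72 (number 2) and 1.05 (number 3). All 3 wildtype values were under the brightness threshold, so the probe set was tested only because of its knockout signals. Its mean on the scale of that threshold was 106, just inside 105, while Mbp 1425263_a_at, at 104, was just outside. The offset added before the logarithm also set the size. Adding the 40th percentile instead of the 20th lowered the difference to 0.84, and adding none raised it to 1.96. Leaving out single pools gave values from 0.96 to 1.48.

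Sox10, which acts with Foxd3 in the crest and later in both myelinating lineages, was read by 3 probe sets that did not move together. Probe set 1424985_a_at had 132.1, 160.3 and 221.3 in wildtype and 232, 248.2 and 115.6 in knockout, so knockout pools 1 and 2 were above the wildtype pools and knockout pool 3 below them. Its log2 difference was 0.15 (SE 0.35). Probe set 1425369_a_at had 83.4, 120.9 and 174.8 in wildtype and 162.6, 34 and 110.8 in knockout, with overlapping groups and a difference of −0.31 (SE 0.46). The third, the dim 1451689_a_at, had 32.1, 40.8 and 86.2 in wildtype and 188.5, 68.2 and 225.3 in knockout. There knockout pools 1 and 3 were the high ones and knockout pool 2 lay within the wildtype range, and the difference was 1.06, without a test. Knockout pool 2 was thus the highest of 6 by the first probe set and the lowest by the second. Without that pool the 2 tested differences changed sign, to −0.02 and 0.11.

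Erbb3, the neuregulin receptor of Schwann cell precursors, split the knockout pools. Probe set 1434606_at had 295.7, 308.3 and 351.8 in wildtype and 255.1, 670.4 and 749.7 in knockout. Knockout pool 1 was the lowest of the 6 pools, while knockout pools 2 and 3 were the highest. The log2 difference was 0.62 (SE 0.39). Leaving out knockout pool 1 raised it to 1.07, and leaving out knockout pool 3 lowered it to 0.36. The other probe set, 1452482_at, lay under its array's 20th percentile in 4 of 6 pools. It had 5, 11.5 and 20.4 in wildtype and 80.2, 20.4 and 46.8 in knockout, and here knockout pool 1 was the highest. The 2 probe sets therefore disagreed on knockout pool 1, with differences within number 1 of −0.19 and 1.45.

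S100b did not separate the genotypes. Its brighter probe set, 1434342_at, had 764.3, 670.6 and 513.1 in wildtype and 811.6, 606.7 and 569.5 in knockout. Pools of the same number were close, pool 1 being the highest in both genotypes and pool 3 the lowest, and the log2 difference was 0.03 (SE 0.28). Its sign turned without wildtype pool 3 (−0.12) or knockout pool 1 (−0.12). The second probe set, 1419383_at, had 234.1, 276.5 and 102.5 in wildtype and 520.5, 222.8 and 101 in knockout. Only knockout pool 1 stood above the wildtype range, and the difference of 0.25 (SE 0.52) became −0.27 without it, −0.10 without wildtype pool 3 and 0.73 without knockout pool 3. Knockout pool 1 was also high for other S100 genes. S100a10 read 8743 there while the other 5 arrays lay from 2970 to 3704. S100a1 read 1801 there, with 515.3 to 635.1 elsewhere, and S100a6 read 585.4, with 236.4 to 297.8 elsewhere.

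Mbp, which encodes a major protein of compact myelin, had 8 probe sets, 7 of them with the higher mean in knockout. The gene also gives rise to longer golli transcripts from an upstream start, which cells other than myelinating glia make, and the table does not say which transcript each probe set reads. In 4 of the 8 probe sets, 2 tested and 2 dim, the groups did not overlap and knockout was higher. Among dim probe sets of the whole table the share without overlap and higher in knockout was 7.98%, and among tested ones 5.23%. A higher knockout mean was found in 51.1% of all probe sets tested. The 8 probe sets read 1 gene in the same pools and are not independent. Probe set 1419646_a_at had 92.2, 109.3 and 208.1 in wildtype and 269.2, 224.5 and 255.1 in knockout. Wildtype pool 3 came close to the knockout pools, and the log2 difference was 0.77 (SE 0.33; unadjusted p = 0.0432, limma adjusted p = 0.999). Probe set 1425264_s_at had 155.4, 211.6 and 224.4 in wildtype and 353.3, 281.6 and 263.7 in knockout. The groups did not overlap, although wildtype pool 3 and knockout pool 3 differed by little, and the same-numbered pairs gave 1.01, 0.36 and 0.20. The difference over all pools was 0.52 (SE 0.27), and 0.28 without both pools numbered 1. Probe set 1451961_a_at had 170, 210.2 and 101.2 in wildtype and 309.6, 321.3 and 169.5 in knockout. Both pools numbered 3 were low, so the groups overlapped while each pair differed in the same direction, by 0.74, 0.53 and 0.57. The difference over all pools was 0.62 (SE 0.35), and 0.38 without wildtype pool 3.

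The 5 dim Mbp probe sets were less even. Both dim signals without overlap came from probe sets marked _x_at, a suffix for probes that can also match other sequences. Probe set 1436201_x_at had 38, 16.6 and 31.3 in wildtype and 136.7, 83.4 and 161.6 in knockout, a ratio of means of 4.44. Probe set 1454651_x_at had 29.5, 18.9 and 29.3 in wildtype and 67, 56.7 and 48.7 in knockout. Both were higher in every knockout pool. Probe set 1433532_a_at had 69.4, 19.7 and 14.4 against 143.5, 42.1 and 98.3, with overlap between wildtype pool 1 and knockout pool 2. In 1456228_x_at only knockout pool 1 stood out, at 192.5, and the remaining pools lay between 54.8 and 74.3, so that the difference of 0.33 became −0.08 without it. In 1425263_a_at the arithmetic means of the signals were 122.6 and 121, which lie above its log2-scale mean of 104. Its knockout pools ran from 11.2 in pool 1 to 229.8 in pool 3, so this probe set held both the lowest and the highest value.

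Cnp, the gene of a cyclic nucleotide phosphodiesterase of the myelin sheath, had lower knockout means in all 3 of its probe sets, none with separate groups. Probe set 1437341_x_at had 3132, 2893 and 1784 in wildtype and 1470, 1910 and 1974 in knockout. It too carries the _x_at suffix, for probes that can also match other sequences. Wildtype pools 1 and 2 were the high ones, and wildtype pool 3 fell among the knockout pools. The log2 difference was −0.51 (SE 0.33), with −1.07, −0.59 and 0.14 within numbers 1, 2 and 3, so pool number 3 went the other way. Without both pools numbered 1 it was −0.22, and without both numbered 3 it was −0.83. Probe set 1418980_a_at had 697.4, 612.5 and 436.9 in wildtype and 446.3, 669.2 and 556.3 in knockout. Its groups overlapped throughout, the difference was −0.05 (SE 0.29), and it was 0.08 without wildtype pool 1 and 0.09 without knockout pool 1. The dim 1449296_a_at had 69.8, 171.4 and 41.1 in wildtype and 18.7, 21.7 and 116.8 in knockout. Differences of opposite sign in Mbp and in Cnp were not tested against each other.

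Olig1 and Olig2, neighbouring basic helix-loop-helix genes of the oligodendrocyte lineage, were too dim to be tested. Olig2 had 6.2, 2.1 and 13.3 in wildtype and 1.7, 5.6 and 6.3 in knockout. All 6 values were under the 20th percentile of their own array, so no level can be read from them. Olig1 had 78.6, 38.9 and 91.7 in wildtype and 128.4, 9 and 12.3 in knockout. Knockout pools 2 and 3 were below every wildtype pool and under their arrays' 20th percentile, while knockout pool 1 was the highest of the 6. Other genes of the oligodendrocyte lineage were mixed in brightness. Mog, of the outer myelin surface, had at most 32.2 in any pool, and Nkx2-2, a homeobox gene of precursors, at most 43.5. Opalin, a membrane protein gene of oligodendrocytes, had 146.7 to 353.2 by its brighter probe set but only 18.7 to 68.7 by a dim second one. Mag ranged from 27.9 to 313.4. In both the myelin and the precursor list, 10 of the 16 genes with a probe set were bright enough to be tested, beside 12797 of all 18193 genes.

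**Figure D2:**
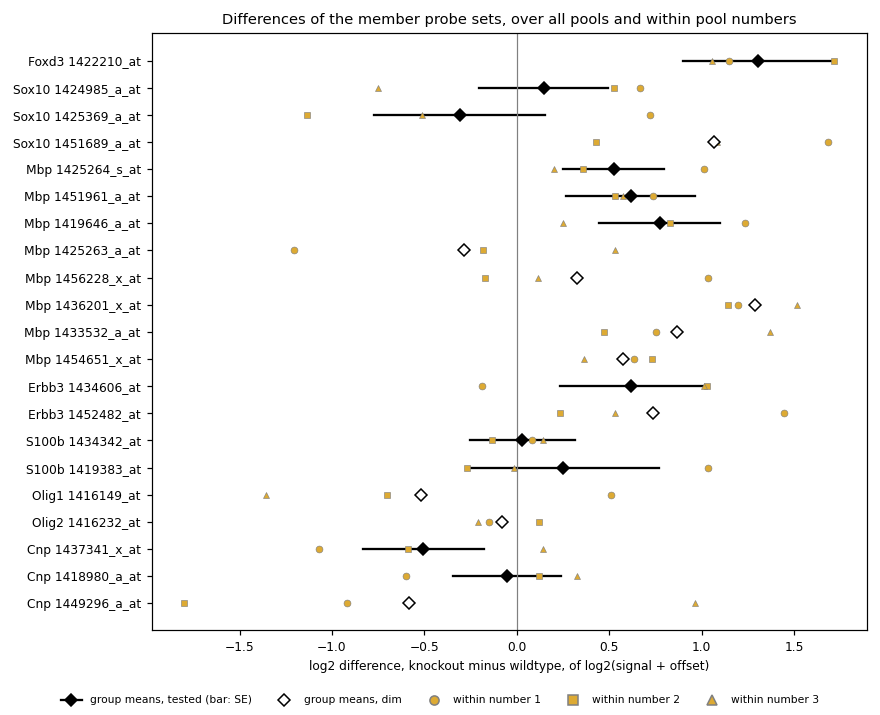
Log2 differences, knockout minus wildtype, of the 21 glial probe sets on the log2(signal + offset) scale. Black diamonds are tested probe sets with the SE of the limma fit, white diamonds are dim ones, and yellow points are differences within pool numbers 1 to 3. Foxd3 lies at 1.31 with its 3 within-number values between 1.05 and 1.72, while the 3 Cnp probe sets lie below 0.

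Over the probe set of highest mean of each gene, 5 of the 6 tested glial genes had the higher mean in knockout, against 53.2% of 12797 tested genes. Their median log2 difference was 0.34, beside 0.03 for all tested genes, and the range ran from −0.51 for Cnp to 1.31 for Foxd3. Foxd3 entered this set through its knockout signals, so neither the count nor the median supports a direction. Within numbers 1, 2 and 3 the median was 0.37, 0.44 and 0.17. Relative to the 6-array mean of each gene, the median over the 6 genes was −0.32, −0.15 and −0.21 in the wildtype pools and 0.31, 0.28 and 0.01 in the knockout pools. The medians of knockout pool 3 and of wildtype pool 2 were thus closer to each other than those of the same knockout pool and the other knockout pools.

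Further genes of the pathway were described from lists of the lineage. Among neural crest and Schwann cell genes, 20 of 23 had a probe set, 16 were tested, 10 had higher and 6 lower knockout means, and none passed the threshold. Their median was 0.07. Tfap2b, an AP-2 factor of neural crest and sympathetic neurons, had the smallest p of this list, with 107.5, 133.8 and 148.4 in wildtype and 357, 260.6 and 248.6 in knockout. The groups did not overlap (log2 difference 0.95, SE 0.29; unadjusted p = 0.00901, limma adjusted p = 0.999), but its dim second probe set differed by 0.04. Tfap2a, its paralogue, had −0.38 (SE 0.30) and, by its other tested probe sets, 0.53 and 0.00 (−0.00087). Egr2, the factor of Schwann cell myelination, had 0.23 (SE 0.42), and −0.99 by a dim probe set. Pmp22, of compact peripheral myelin, had 0.28 (SE 0.46).

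In the neuregulin and ErbB list 8 of 12 genes were tested, 5 with higher and 3 with lower means, none past the threshold, and the median was 0.23. The partner receptor Erbb2 had 178.2, 136.8 and 27 in wildtype and 241.4, 33.2 and 276.4 in knockout, so both groups held a low and a high pool (difference 0.45, SE 0.66). Erbb4, another neuregulin receptor, had at most 10.2 in any pool, and Nrg1, the neuregulin of axons, was under the brightness threshold. Nrg2, a second neuregulin, had 137.1, 286.1 and 208.6 against 475.1, 501.5 and 245.6, a difference of 0.83 (SE 0.36; unadjusted p = 0.0448, limma adjusted p = 0.999), with overlap at knockout pool 3. The adaptor gene Shc1 had 0.53 (SE 0.27) without overlap, but −0.24, also without overlap, by its dim second probe set. Egfr, a relative of Erbb3, had 1434, 2756 and 3254 in the knockout pools against 1472 to 2035 in wildtype (0.39, SE 0.37). This order of the knockout pools, that of Erbb3, was shared by its probe set 1424932_at. The order was reversed in its tested probe sets 1432647_at, 1451530_at and 1460420_a_at, the last with 1160, 788 and 693 in the knockout pools.

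Among oligodendrocyte precursor genes 10 of 18 were tested, 7 with higher means, none past the threshold (median 0.26). Pdgfra, the receptor of precursors and also of fibroblasts, had 1872, 3672 and 5620 in the knockout pools against 1857 to 1993 in wildtype, so knockout pool 1 lay in the wildtype range as it did not in Erbb3, where it was lower. A second Pdgfra probe set, 1438946_at, had 166.3, 211.2 and 215.7 in wildtype and 386.6, 290.2 and 386.3 in knockout, with no overlap and knockout pool 1 high (0.73, SE 0.26; unadjusted p = 0.0221, limma adjusted p = 0.999). Cspg4, the proteoglycan NG2, had 0.38 (SE 0.37), and −0.17 by a dim probe set. Sox6, a transcription factor gene of precursors, had 0.42 (SE 0.25), with knockout higher and no overlap. Its other tested probe sets had −0.44 (SE 0.34) and 0.04 (SE 0.40). Lhfpl3 had 0.48 (SE 0.35), also with knockout higher and no overlap, but −0.29 by a dim second probe set. Sox8, a relative of Sox10, had 0.00057 (SE 0.47).

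Among myelin and mature oligodendrocyte genes 10 of 19 were tested, 9 with higher means, none past the threshold (median 0.31). The 3 with the smallest p were Gal3st1 (0.47, SE 0.36), Aspa (0.32, SE 0.28) and Opalin (0.38, SE 0.34), all with overlapping groups. Mag, a myelin adhesion protein gene, had 27.9 in wildtype pool 1 and 173 to 313.4 in the other pools. Of the paralogues of the 8 genes 10 of 14 were tested, 9 with higher means (median 0.30). The SoxE gene Sox9 had 0.46 (SE 0.33), and −0.31 and 0.31 by its other probe sets. No limma adjusted p in these 5 lists was below 0.999.

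**Figure D3:**
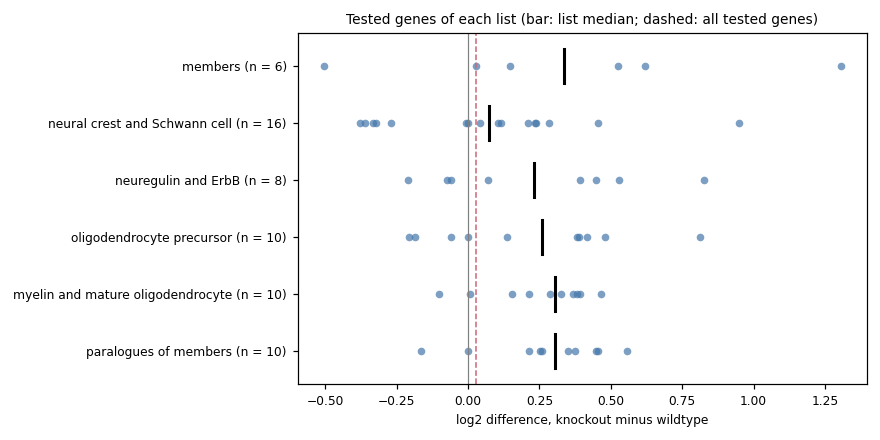
Log2 differences, knockout minus wildtype, of the tested genes of the 8 glial genes and of 5 further lists, by the probe set of highest mean. Points are genes, black bars are list medians between 0.07 and 0.34, and the dashed line is the median of all tested genes at 0.03.

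Genes of other cell types also differed between the pools. Pinealocyte genes, of the gland's main cell type, had lower knockout means for 8 of 10, Neurod1 among them, with a median of −0.44. Their summed signal was 41683 to 61476 in wildtype and 23003 to 42642 in knockout, so the sums overlapped. The median and the sums include Neurod1, whose fall the knockout fixes in advance, at 7519 to 9301 in wildtype and 122.5 to 524 in knockout. Neurod1 was also the 1 gene of the list past the threshold. Melanocytes, also of the neural crest, make Sox10: 6 of 8 tested melanocyte genes had higher means, and the summed signal of the list was 25593 to 56624 in wildtype and 46180 to 56371 in knockout. Astrocytes make S100b: 5 of 8 had higher means, and the sum was 53353 to 76098 in wildtype and 75355 to 91021 in knockout. Meningeal fibroblast genes had higher means for 9 of 9, with sums of 101938 to 118912 and 125109 to 154482, which did not overlap, although the median deviation of its genes was lowest in knockout pool 1 (−0.23) and highest in knockout pool 2 (0.21). None of these markers was at 0. Separate sums were not particular to the meningeal list. Sums of the neuregulin and ErbB list were 10256.9 to 12184.5 in wildtype and 12346.2 to 14448.1 in knockout. Those of the paralogues were 8241.5 to 9657 in wildtype and 9883.1 to 15999.3 in knockout. In the neural crest, precursor and myelin lists the sums overlapped. The sums are weighted to the brightest genes of each list. In wildtype pool 1, the astrocyte sum of 53353 held 30178 from Gja1, 12329 from Vim and 7682 from Fabp7, while Gfap read 95.6. The melanocyte sum of 25593 in that pool held 12658 from Mitf and 10948.5 from Ednrb, while Tyr read 78.4. Sympathetic neuron genes, of the fibres that Schwann cells accompany, had higher means for 3 of 5 (sums 1430 to 1598 and 1369 to 1675). The part of these cell types in the glial values was not tested.

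For each tested glial gene the 2 genes nearest in pattern were found by the mean absolute difference, over the 6 arrays, between the genes' deviations from their own means on the log2 scale. Nearest to Foxd3 was St8sia6, a sialyltransferase gene, at 0.08, with 77.7, 28.6 and 78.9 in wildtype and 220.1, 148.7 and 175.8 in knockout. It was followed by the amino acid transporter gene Slc16a10 at 0.22. Nearest to Erbb3 were Apbb2 and Abca1, both at 0.09, and Abca1, a lipid transporter gene, had 4907, 10410 and 13224 in the knockout pools beside 5364 to 5809 in wildtype. Mbp lay nearest to Klk8 and Tsks (both 0.04), Sox10 to Mns1 (0.04) and Zfp830 (0.06), S100b to Pole3 and Cdh1 (both 0.03), and Cnp to Ubfd1 (0.04) and Fitm2 (0.06). With 12797 genes and 6 arrays a near match is easily found, and these distances are a description.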

How the data were processed

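The deposited table holds 1 linear fluorescence intensity per probe set and array. Per the submitters' processing notes the authors used the GCOS software, and its version and signal algorithm are not given in the sources used here. The 2% trimmed means of the 6 deposited intensity columns lay between 499.5 and 500, so the arrays had been scaled to a common level before deposit. Values were used as log2(signal + 38.6), the offset being the 20th percentile of all values, which understates changes of dim genes. Probe sets among the 40% with the smallest mean of these log2 values were left out, and all 22012 others that name 1 gene entered 1 fit in limma 3.58.1 (R 4.3.3; lmFit, then eBayes with its trend option). The test was two-sided with 4 residual degrees of freedom, and p-values were adjusted by Benjamini-Hochberg, with a threshold of 0.05. The plan said only that the filter used the mean. It was first run on the arithmetic mean of the signals (threshold 115, 22021 probe sets), and was changed to the log2 mean after those results had been seen, because that gave the number of genes of an earlier analysis of these data. The first definition is kept as an alternative chosen after seeing the data. The script was tested on simulated data, where large falls of dim probe sets came out too small.

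The genes and lists were chosen with earlier results of these data known. Named genes are all 8 with every probe set, Neurod1, the 3 genes of smallest p in each lineage list, a fixed set of lineage markers, and for each tested gene its 2 nearest patterns. S100a1 and Ttr were singled out after their values were seen. Probe sets of a gene are given separately, and lists use the probe set of highest mean.

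The series' design text describes the pools as separate biological samples. Pools of the same number share a date in the labels, and their deviations from the group means correlated by 0.33, 0.25 and 0.38 across probe sets in numbers 1, 2 and 3, so the number was taken to pair pools in an alternative fit. The number of arrays limits the precision: the median SE was 0.35, and an exact permutation test of 3 against 3 pools cannot go below p = 0.1. Detection calls and scanner files were not analysed here.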

Additional observations from a re-analysis of the deposited data

How the results depend on the processing

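The count of glial probe sets past the threshold was 0 under all 19 alternatives. One of these, the filter on the arithmetic mean of the signals, was run first and replaced after its results were seen. It also tested 11 glial probe sets, with Mbp 1425263_a_at in place of Sox10 1425369_a_at, and called 2 probe sets in all, and Foxd3 then had an unadjusted limma p of 0.0156 (adjusted p = 0.999). The count of all probe sets past it, 2 in the main fit, was 0 with no offset, 1 with 1 probe set per gene, 1 without both pools numbered 1, 0 without both numbered 2 and 0 without both numbered 3, and leaving out single pools gave 0 to 2. A block for the replicate number gave 2 and changed no call. The median over the tested glial genes, 0.34, was 0.14 without both pools numbered 1 and 0.51 without both numbered 3, and lay between 0.22 and 0.46 without 1 pool. Median centring moved the median of all genes from 0.03 to −0.11, and S100b 1434342_at then had −0.11, which is no change relative to it. Quantile normalization gave Sox10 1424985_a_at −0.0026. Without both pools numbered 1 Sox10 1424985_a_at had −0.11, S100b 1419383_at −0.14 and Cnp 1418980_a_at 0.22. Without both numbered 2 Sox10 1424985_a_at had −0.044 and 1425369_a_at 0.10, and without both numbered 3 S100b 1434342_at had −0.027. With 1 pool left out, differences ran from −0.017 to 0.43 for Sox10 1424985_a_at, −0.63 to 0.11 for Sox10 1425369_a_at, −0.12 to 0.15 for S100b 1434342_at, −0.27 to 0.73 for S100b 1419383_at and −0.23 to 0.087 for Cnp 1418980_a_at. The causes were not tested. The sign of Foxd3 1422210_at, Erbb3 1434606_at, Cnp 1437341_x_at and the 3 tested Mbp probe sets was the same under every alternative that tested them, and the adjusted p of Foxd3 1422210_at ranged from 0.63 to 1.00 over them. Signal over background could not be judged without detection calls.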
